A study of Rattus norvegicus with 5 samples.

Results

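The transcripts of 7 immediate early genes were examined in microglia, the resident immune cells of the brain: Fos (ENSRNOG00000008015), Jun (ENSRNOG00000026293), Junb (ENSRNOG00000042838), Egr1 (ENSRNOG00000019422), Atf3 (ENSRNOG00000003745), Dusp1 (ENSRNOG00000003977) and Nr4a1 (ENSRNOG00000007607). The genes were taken by identifier from a list drawn up with earlier results of these data known, and all 7 were found among the 35495 features of the tables. The rats were male Sprague Dawley offspring, labelled as 3 months old, whereas the study's methods state a younger age in weeks. Their dams were injected during gestation, through the tail vein, with an adenovirus that carried the CYP11A1 gene (CYP11A1 group, 3 libraries) or with the control vehicle adenovirus (control group, 2 libraries). Both vectors also carried a green fluorescent protein, and the CYP11A1 cDNA was human and stood under a CMV promoter, which is not specific to a cell type. The virus was given to the dams, so the cells sequenced were not themselves the cells injected, and which offspring were littermates is not stated in the sources used here. The study's methods place behavioural tests of the offspring of both groups before the harvest, without stating the time between. Microglia were taken from minced and dissociated adult brain on Percoll gradients and sequenced after amplification of full-length cDNA.

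Immediate early genes are transcribed within minutes of a stimulus without the need for newly made protein. In microglia and other brain cells they are well known to be switched on by growth factors, calcium entry and inflammatory signals, and also by the handling, warming and dissociation of tissue before the RNA is fixed. Signals through the mitogen-activated protein (MAP) kinases reach serum response factor and its ETS partners at CArG boxes, and signals through cAMP and calcium reach CREB at cAMP response elements. Fos, Jun, Junb and Atf3 encode basic leucine zipper proteins that pair with each other (Fos with a Jun protein makes the factor AP-1), Egr1 encodes a zinc finger factor, Nr4a1 an orphan nuclear receptor, and Dusp1 a phosphatase that switches MAP kinases off again. All 5 libraries came from dissociated cells, so the share of isolation in the levels was not tested. No table used here pairs the other identifiers with gene names, so the microglial identity of the libraries was not checked against marker genes. The study identified the cells by Cd11b staining and reports that most, but not all, were positive.

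Total counts per library lay between 9623896 and 13624545, and between 10766 and 16969 features had at least 1 count. The 10 most counted features took 37.5% to 65.4% of the counts of a library, and the TMM factors, which correct for such composition, ranged from 0.615 (CYP11A1 1) to 1.35 (CYP11A1 2). The values are therefore given on more than one scale. The normalized count (CPM, the count scaled to library size and TMM factor) serves to compare libraries. The deposited FPKM (scaled to the plain library total and to feature length) serves to compare genes with each other. Intervals are exact Poisson or binomial intervals at 95%, or Wilson intervals where so named, and cover counting error only, since the reads carry no molecular identifiers. The lengths implied by the tables for the intronless genes Jun and Junb were 3089 and 1783 bp, beside gene lengths of 3094 and 1785 bp in RefSeq (GRCr8).

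Upstream sequence was at hand for 4 of the 7 genes in the RefSeq table for GRCr8, and it is shown for these. The 4 transcripts peaked in 3 different libraries, and whether the sequence bears on that was not tested. Each run gives, 5′ to 3′ on the plus strand, the 250 bases before the annotated start, and capitals mark the motif matches found. Those of Junb lie at chr19:40080876-40081125, of Egr1 at chr18:26736828-26737077, of Dusp1 at chr10:17184603-17184852 and of Nr4a1 at chr7:134259888-134260137.
Junb: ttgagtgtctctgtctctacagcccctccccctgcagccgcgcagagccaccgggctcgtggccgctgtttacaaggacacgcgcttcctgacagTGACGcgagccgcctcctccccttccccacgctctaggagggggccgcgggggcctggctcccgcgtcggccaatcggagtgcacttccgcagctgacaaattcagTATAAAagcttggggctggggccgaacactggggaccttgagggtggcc
Egr1: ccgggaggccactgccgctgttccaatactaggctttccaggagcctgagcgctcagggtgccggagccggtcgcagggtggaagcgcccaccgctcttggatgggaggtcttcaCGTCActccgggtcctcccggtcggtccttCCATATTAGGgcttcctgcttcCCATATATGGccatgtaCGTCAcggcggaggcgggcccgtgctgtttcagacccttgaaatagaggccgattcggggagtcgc
Dusp1: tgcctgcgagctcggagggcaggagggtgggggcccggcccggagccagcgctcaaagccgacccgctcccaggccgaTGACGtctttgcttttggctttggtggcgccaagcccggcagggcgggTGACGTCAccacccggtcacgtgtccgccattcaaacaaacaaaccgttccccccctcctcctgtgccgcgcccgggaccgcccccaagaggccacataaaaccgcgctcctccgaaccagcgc
Nr4a1: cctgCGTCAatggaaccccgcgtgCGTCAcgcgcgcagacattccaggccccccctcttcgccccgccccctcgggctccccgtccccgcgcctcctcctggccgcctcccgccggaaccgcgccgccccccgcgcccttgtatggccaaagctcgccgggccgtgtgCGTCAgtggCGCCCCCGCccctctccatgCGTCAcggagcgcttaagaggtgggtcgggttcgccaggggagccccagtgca

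The motifs searched, on both strands, were the CArG box, the full cAMP response element TGACGTCA, its core TGACG (which the full element contains), the AP-1 element TGANTCA, the EGR element GCGNGGGCG and the TATA element TATAAA. Egr1 held 2 CArG boxes, CCATATTAGG at positions -105 to -96 and CCATATATGG at -83 to -74, where -1 is the base before the start. A CArG box was present in 1.5% of all 33469 upstream windows of the same length. Dusp1 held the full cAMP response element at -124 to -117, which 1.59% of all windows held. The core was present in all 4 genes, against 18.2% of all windows, and Nr4a1 had 4 matches to it, at -246, -226, -82 and -53 by their first base. Nr4a1 also had an EGR element at -73 to -65 (4.29% of all windows), and Junb a TATA element at -49 to -44 (12.9%). The AP-1 element matched in none of the 4 windows, against 6.34% of all. The windows behind these percentages were not matched to the 4 genes in base content, which also affects how often a short motif occurs, so no enrichment is read from them. These are matches of letters, and whether a factor was bound there was not measured.

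**Figure D1:**
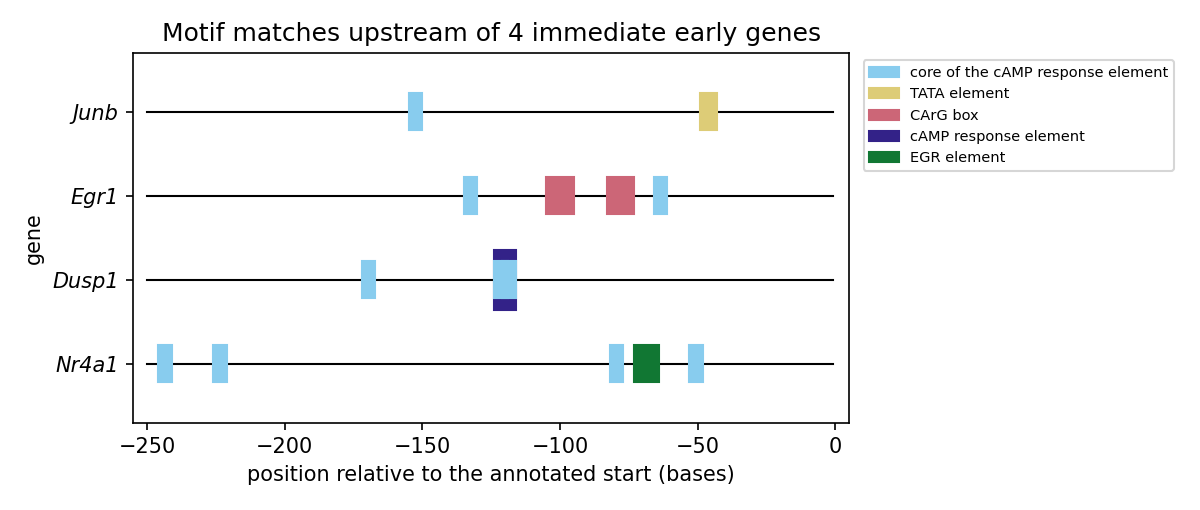
Position of motif matches in the 250 bases upstream of the annotated starts of Junb, Egr1, Dusp1 and Nr4a1; the horizontal axis is the distance from the start in bases, each line is 1 gene and each box is 1 match, coloured by motif (the full cAMP response element is drawn taller, behind the 2 matches to its core). The 2 CArG boxes are in Egr1 and the full cAMP response element is in Dusp1.

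Taken per length, Fos and Dusp1 were the most abundant of the 7 transcripts, and Atf3 and Nr4a1 had the fewest counts (25 and 73 over the 5 libraries). The FPKM of Dusp1 was 9.21 and 21.0 in controls 1 and 3, and 4.49, 39.7 and 19.0 in CYP11A1 1, 2 and 3. The FPKM of Fos was 18.2 and 19.0 in the controls and 4.56, 13.5 and 8.60 in the CYP11A1 libraries. Fos thus ranked first among the genes in control 1, and Dusp1 ranked first in control 3, CYP11A1 2 and CYP11A1 3, although in control 3 the counting intervals of Dusp1 (19.0 to 23.2) and Fos (16.8 to 21.3) overlapped. In CYP11A1 1 the highest was Junb with 4.98 FPKM (4.04 to 6.07), and Fos, Dusp1 and Jun, with 4.56, 4.49 and 3.87 FPKM, had intervals that overlapped with it. Among all features detected in a library, Fos stood above 75.5% to 90.9% and Dusp1 above 81.4% to 94.2% of them in FPKM.

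Among the other genes, the FPKM of Junb ranged from 4.59 to 8.56, that of Jun from 1.81 to 6.39 and that of Egr1 from 1.42 to 6.05. Atf3 lay between 0.0390 and 0.348 FPKM and Nr4a1 between 0.0923 and 1.59 FPKM. The 7 genes together held 0.00840% of the counts in control 1 (95% Wilson interval 0.00792% to 0.00890%) and 0.0113% in control 3 (0.0107% to 0.0120%). They held 0.00438% (0.00401% to 0.00479%), 0.0139% (0.0132% to 0.0146%) and 0.00804% (0.00757% to 0.00853%) in CYP11A1 1, 2 and 3. On this scale of plain totals the highest and the lowest share were both in the CYP11A1 group. The summed normalized counts, which include the TMM factor, were 86.8 and 106.7 CPM in the controls and 71.3, 102.6 and 68.6 CPM in CYP11A1 1, 2 and 3. CYP11A1 1, whose 10 leading features held 65.4% of its counts, was then no longer the lowest, control 3 was the highest, and the groups overlapped on both scales.

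**Figure D2:**
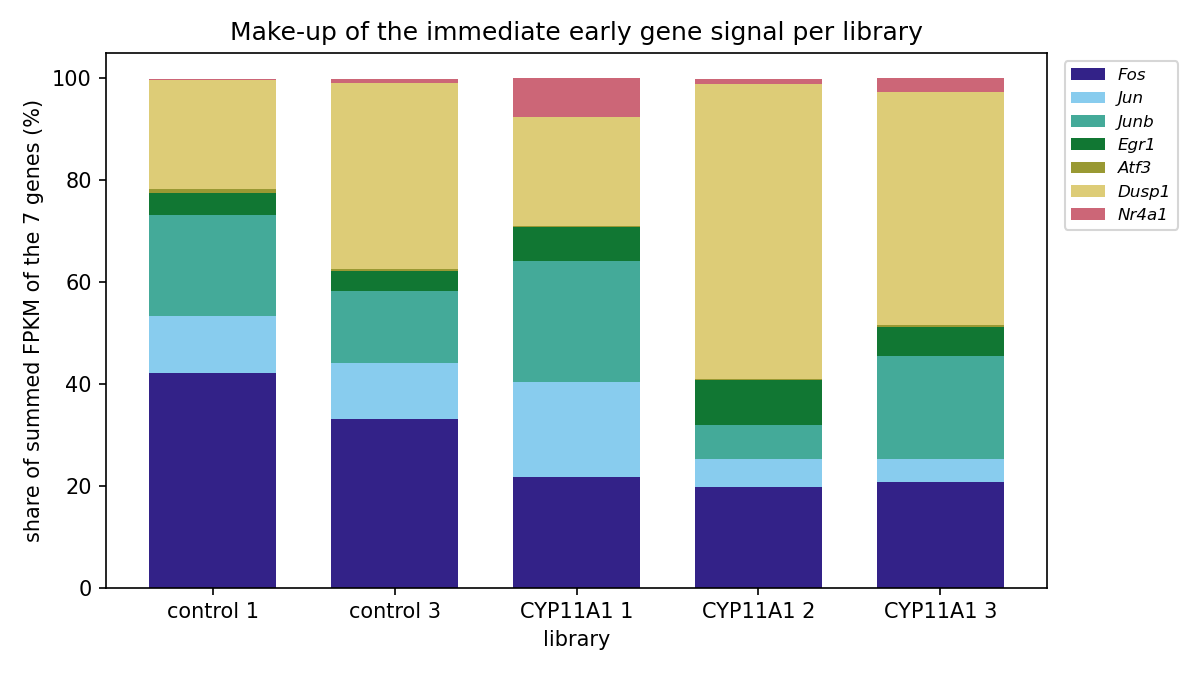
Make-up of the summed FPKM of the 7 genes in each library; the vertical axis is the percentage of that sum, each bar is 1 library and each colour 1 gene. Fos made up 42.1% and 33.1% in the controls and 19.7% to 21.8% in the CYP11A1 libraries, and Dusp1 made up from 21.3% (control 1) to 57.9% (CYP11A1 2).

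The comparison of the groups asks whether the transcriptome of microglia differed between offspring of CYP11A1-overexpressing and control dams. None of the 7 genes passed the adjusted threshold of 0.05 in edgeR's quasi-likelihood test, and none had an unadjusted p under 0.05 either, the lowest being 0.135 for Nr4a1 and 0.155 for Fos. DESeq2 likewise gave 0 of the 7 at either threshold. Over the 10346 features tested, 0 (0%) were called by edgeR after adjustment and 441 (4.26%) had an unadjusted p under 0.05. The latter count moved to 752 without control 3 and to 222 without control 1. DESeq2 called 12 of 10427 features (0.115%) after adjustment. Of the 7 genes, 6 passed the filter on low counts and Atf3 did not. Nr4a1 passed it only through the CYP11A1 libraries, since it had at most 7 counts in a control. The filter thus favoured a higher value of Nr4a1 in the CYP11A1 group, and the genes are described singly rather than by a median. The median log2 fold change (CYP11A1 minus control) over all features tested was 0.15. It was 0.49 without control 3, and from 0.03 to 0.18 with any other single library left out.

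**Figure D3:**
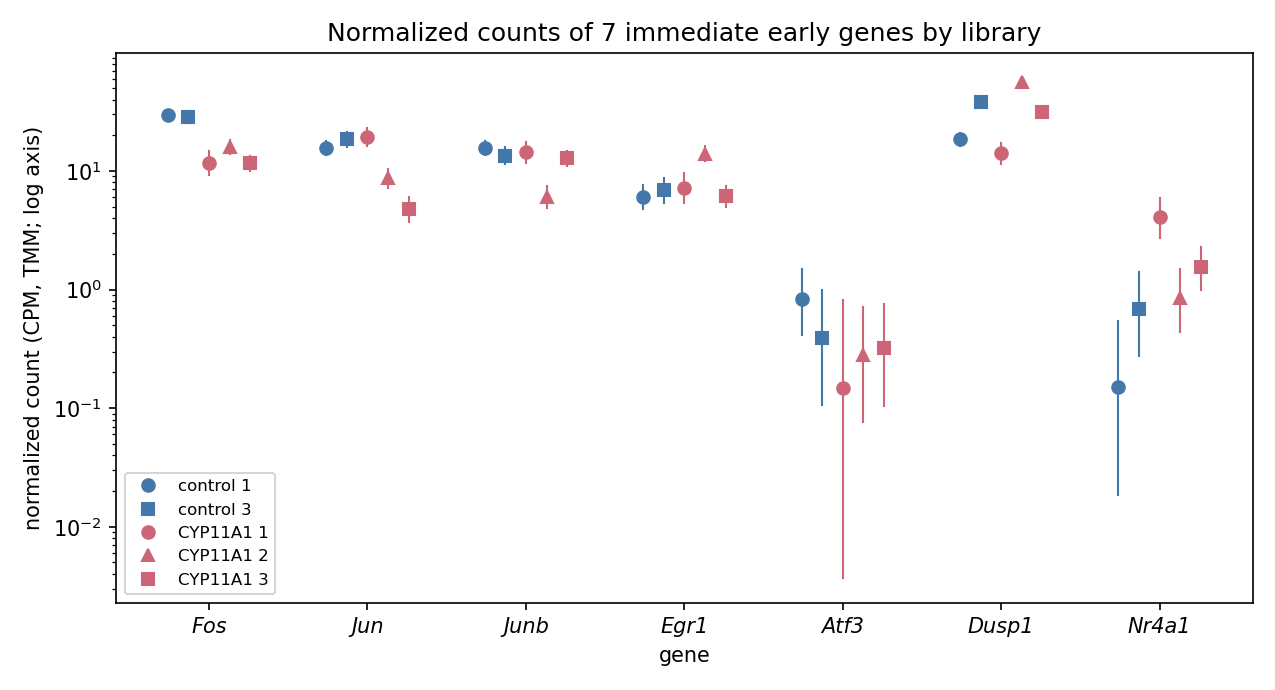
Normalized counts of the 7 genes in the 5 libraries; the vertical axis is CPM after TMM on a log scale, points are single libraries (blue for control, red for CYP11A1) and vertical lines are 95% Poisson intervals of the counts. The Fos values of the controls, 29.9 and 28.4 CPM, lie above those of the CYP11A1 libraries, 11.7 to 15.9 CPM, and the Nr4a1 values of the controls lie below those of the CYP11A1 libraries.

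Fos, the partner of the Jun proteins in AP-1, had 394 counts in control 1, 290 in control 3, and 80, 226 and 181 counts in CYP11A1 1, 2 and 3. These correspond to normalized counts of 29.9 and 28.4 CPM in the controls and of 11.8, 15.9 and 11.7 CPM in the CYP11A1 libraries. The 2 controls were close to each other and every CYP11A1 library was lower, on both the CPM and the FPKM scale. The mean was 29.1 ± 1.07 CPM (SD, n = 2) in the control and 13.1 ± 2.41 CPM (SD, n = 3) in the CYP11A1 group. The log2 fold change was -1.15 ± 0.76 (SE), with an adjusted p of 1 in edgeR's quasi-likelihood test, so the difference did not stand out from the spread that this test allows between libraries. The exact permutation test over libraries (two-sided, on log2(CPM + 1)) gave p = 0.1, the smallest value that 10 assignments of the libraries allow. Groups that do not overlap, with lower values in the CYP11A1 group, were found in 7.91% of all features tested in normalized count and in 7.35% in FPKM. In bulk RNA, fewer cells that express a gene and less of its RNA per cell cannot be told apart.

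Jun had 206 and 190 counts in the controls and 132, 124 and 74 counts in CYP11A1 1, 2 and 3. Its normalized counts were 15.6 and 18.6 CPM in the controls and 19.4, 8.73 and 4.77 CPM in the CYP11A1 libraries. CYP11A1 1 was the highest and CYP11A1 3 the lowest of all libraries, and the groups overlapped. On the FPKM scale, which lacks the TMM factor, all 3 CYP11A1 libraries (1.81 to 3.87) were below the controls (4.89 and 6.39), as in 7.35% of all features tested, so the position of CYP11A1 1 depended on the scaling. The log2 fold change was -0.67 ± 0.86 (SE, adjusted p = 1 with edgeR). It was -1.34 without CYP11A1 1 and -0.29 without CYP11A1 3.

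Junb, which also pairs with Fos and is commonly a weaker activator than Jun, had 208 and 138 counts in the controls and 98, 86 and 199 counts in CYP11A1 1, 2 and 3. Its normalized counts were 15.8 and 13.5 CPM in the controls and 14.4, 6.05 and 12.8 CPM in the CYP11A1 libraries. In CPM, CYP11A1 2 was the lowest and the other CYP11A1 libraries lay close to control 3, so the groups overlapped. In FPKM the groups overlapped too, but CYP11A1 1 (4.98) lay close to CYP11A1 2 (4.59) and well below control 3 (8.04). The position of CYP11A1 1 thus depended on the scaling, as for Jun. The log2 fold change was -0.41 ± 0.83 (SE, adjusted p = 1 with edgeR). It was -0.22 without CYP11A1 2 and -0.63 without CYP11A1 1. Within a library, the FPKM ratio of Junb to Jun was 1.75 (1.44 to 2.13) in control 1, 1.26 (1.0 to 1.58) in control 3, 1.29 (0.98 to 1.68) in CYP11A1 1 and 1.20 (0.902 to 1.59) in CYP11A1 2. In CYP11A1 3 it was 4.66 (3.55 to 6.17), outside the intervals of the 4 other libraries. Jun was at its lowest in CYP11A1 3, and Junb was there within the range of the other libraries.

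Atf3, a stress-induced member of the same protein class, had 11 and 4 counts in the controls and 1, 4 and 5 counts in CYP11A1 1, 2 and 3. Its normalized counts were 0.835 and 0.391 CPM against 0.147, 0.282 and 0.323 CPM. The groups did not overlap (lower in 7.91% of the features tested, among which Atf3 was not), but in every CYP11A1 library the counting interval reached into that of control 3. Summed over libraries and scaled to their effective sizes, the CYP11A1 group had 10 counts and the control group 15, a ratio of 0.427 (95% exact interval 0.172 to 1.02). This interval covers counting error only and includes 1. The exact permutation test over libraries gave p = 0.1 (two-sided), the smallest value it can give here, as for Fos. A difference between the groups was not established from these counts.

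Egr1, whose upstream window carried the CArG boxes, had 80 and 70 counts in the controls and 49, 199 and 95 counts in CYP11A1 1, 2 and 3. Its normalized counts were 6.07 and 6.85 CPM in the controls and 7.22, 14 and 6.13 CPM in the CYP11A1 libraries. In CPM the libraries lay close together apart from CYP11A1 2. The counting interval of CYP11A1 2 (12.1 to 16.1 CPM) did not reach that of the next highest library, CYP11A1 1 (5.34 to 9.54 CPM). In FPKM, CYP11A1 2 was again the highest (6.05), but CYP11A1 1 (1.42) was the lowest of all libraries. The position of CYP11A1 1 thus depended on the scaling here too. The log2 fold change was 0.51 ± 0.89 (SE, adjusted p = 1 with edgeR). It was -0.07 without CYP11A1 2, so its sign rested on that library.

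Nr4a1, the nuclear receptor, had 2 and 7 counts in the controls and 28, 12 and 24 counts in CYP11A1 1, 2 and 3. Its normalized counts were 0.152 and 0.685 CPM in the controls and 4.12, 0.844 and 1.55 CPM in the CYP11A1 libraries. All CYP11A1 libraries were above both controls, although CYP11A1 2 (0.436 to 1.47 CPM) and control 3 (0.275 to 1.41 CPM) overlapped in their counting intervals. Control 1 was under the floor of 3 counts. Summed over libraries and scaled to effective library size, the ratio of the CYP11A1 to the control group was 4.56 (95% exact interval 2.26 to 10.4, counting error only), from 64 and 9 counts. This interval leaves out the spread between libraries. Nr4a1 also passed the filter only through the CYP11A1 libraries, so no difference between the groups is read from the interval. The log2 fold change was 2.30 ± 1.45 (SE), with an adjusted p of 1 in edgeR's quasi-likelihood test, and the exact permutation test gave p = 0.2 (two-sided). This fold change was 1.53 on the log2 scale without control 1, 1.61 without CYP11A1 1 and 3.59 without control 3, and 0.75 with limma on log2(FPKM + 1), so its size rested on single libraries and on the scale. Groups that do not overlap, with higher values in the CYP11A1 group, were found in 6.49% of all features tested in normalized count and in 5.95% in FPKM. The library with the highest Nr4a1, CYP11A1 1, was also the one with the lowest TMM factor, and it was the highest on the FPKM scale as well.

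Dusp1, the MAP kinase phosphatase, had the most counts of the 7 genes over all libraries (2023), but not in control 1 or CYP11A1 1. It had 243 and 391 counts in the controls and 96, 807 and 486 counts in CYP11A1 1, 2 and 3. Its normalized counts were 18.4 and 38.3 CPM in the controls and 14.1, 56.8 and 31.4 CPM in the CYP11A1 libraries. The CYP11A1 group contained both the highest and the lowest library, 4.02-fold apart in CPM. The mean was 28.3 ± 14 CPM (SD, n = 2) in the control and 34.1 ± 21.5 CPM (SD, n = 3) in the CYP11A1 group. The log2 fold change was 0.28 ± 0.83 (SE, adjusted p = 1 with edgeR). It was -0.46 without CYP11A1 2 and -0.18 without control 1, so the data gave no stable direction for this gene. The highest values of Dusp1 and of Egr1 were in the same library, CYP11A1 2, in which Junb was at its lowest.

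**Figure D4:**
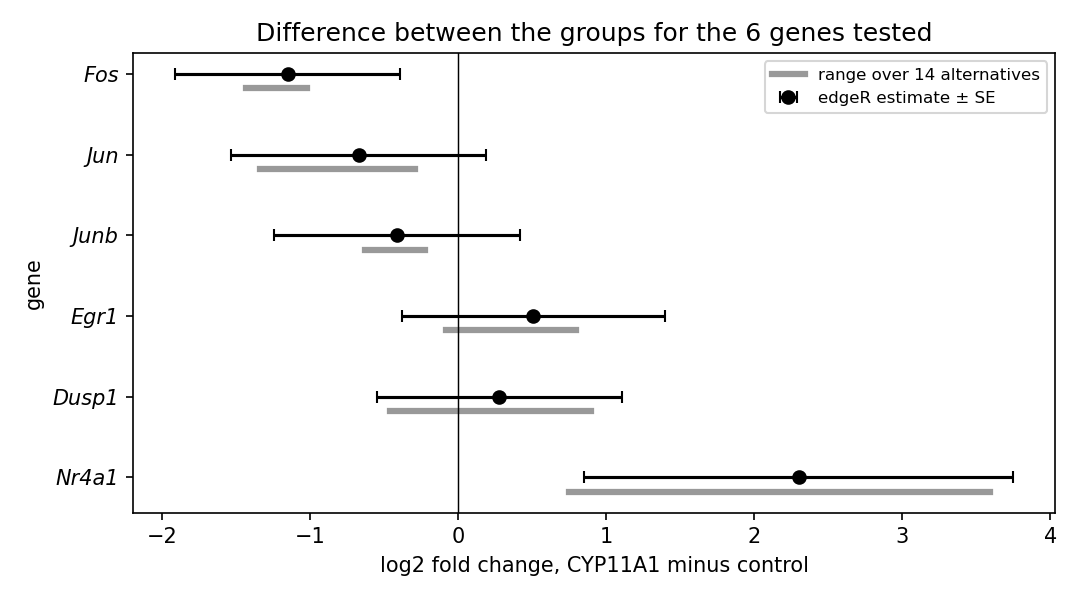
Difference between the groups for the 6 genes that passed the filter; the horizontal axis is the log2 fold change (CYP11A1 minus control), black points and bars are edgeR estimates ± SE, and grey lines span the values under 14 alternative settings. The SE of Jun, Junb, Egr1 and Dusp1 crosses 0, and the grey lines of Egr1 and Dusp1 do too.

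The SD of log2(CPM + 1) over the 5 libraries was 0.63 for Fos, 0.78 for Jun, 0.50 for Junb, 0.45 for Egr1, 0.78 for Dusp1 and 0.81 for Nr4a1, beside a median of 0.81 over all features tested. The added 1 shrinks differences at low CPM. The CPM of Nr4a1 differed 27.2-fold between its highest and lowest library, against 4.02-fold for Dusp1 with a similar SD. For Atf3, which was not tested, the SD was 0.25 at a 5.67-fold difference. These SDs therefore do not rank the genes by relative spread. The genes did not share one order of libraries. In normalized count the highest library was control 1 for Fos, Junb and Atf3, CYP11A1 1 for Jun and Nr4a1, and CYP11A1 2 for Egr1 and Dusp1. The lowest was CYP11A1 3 for Fos and Jun, CYP11A1 1 for Atf3 and Dusp1, control 1 for Egr1 and Nr4a1, and CYP11A1 2 for Junb. In FPKM, Egr1 and Dusp1 had the same order of all libraries, and the lowest library was CYP11A1 1 for Fos, Egr1, Atf3 and Dusp1. It was CYP11A1 3 for Jun, CYP11A1 2 for Junb and control 1 for Nr4a1. How far the orders differ thus depended on the scaling.

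Ratios within a library are free of the scaling between libraries, and they were taken to Fos. The FPKM of Egr1 relative to Fos was 0.103 (0.0800 to 0.131) in control 1 and 0.123 (0.0930 to 0.160) in control 3. It was 0.311 (0.213 to 0.449), 0.447 (0.368 to 0.543) and 0.266 (0.206 to 0.343) in CYP11A1 1, 2 and 3, above both controls in each. The ratio of Nr4a1 to Fos was 0.00507 (0.000612 to 0.0184) in control 1, which rests on 2 counts, and 0.0241 (0.00961 to 0.0503) in control 3. It was 0.350 (0.219 to 0.544), 0.0531 (0.0270 to 0.0945) and 0.133 (0.0827 to 0.203) in CYP11A1 1, 2 and 3, so that the values of the groups lay apart while the intervals of control 3 and CYP11A1 2 overlapped. The ratio of Dusp1 to Fos was 0.506 and 1.11 in the controls and 0.985, 2.93 and 2.20 in the CYP11A1 libraries, and the ratios of Jun, Junb and Atf3 to Fos overlapped between the groups as well. A ratio to Fos that was higher in the CYP11A1 group without overlap was found in 30.0% of the 10345 other features tested, and a lower one in 2.19%. Fos is the common denominator of that background, and nothing particular to Egr1 or Nr4a1 is read from it.

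**Figure D5:**
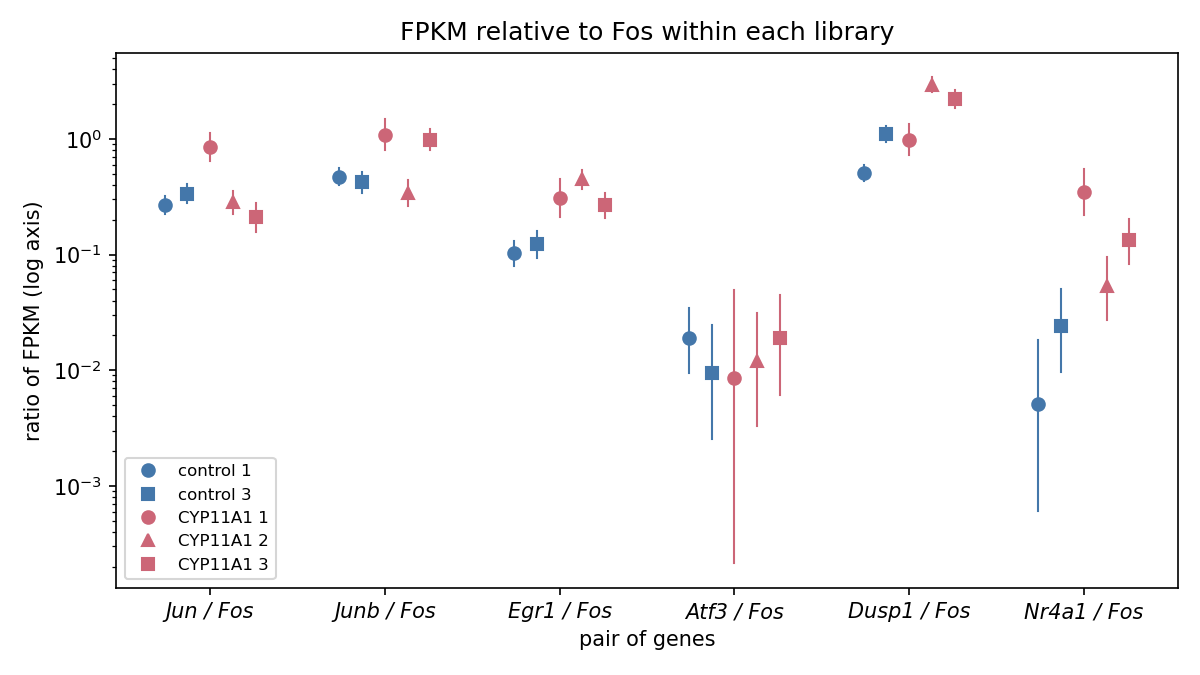
FPKM of 6 genes relative to Fos within each library; the vertical axis is the ratio on a log scale, points are libraries (blue for control, red for CYP11A1) and lines are 95% binomial intervals of the counts. Egr1 to Fos lies at 0.103 and 0.123 in the controls and at 0.266 to 0.447 in the CYP11A1 libraries.

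The 5 genes with at least 10 counts in every library (Fos, Jun, Junb, Egr1 and Dusp1) had a mean profile, in log2 CPM centred on each gene's own mean, of 0.12 and 0.36 in controls 1 and 3 and of -0.14, 0.06 and -0.40 in CYP11A1 1, 2 and 3. The root mean square distance of each gene to this profile was 0.399 for Fos, 0.478 for Egr1, 0.568 for Junb, 0.629 for Jun and 0.705 for Dusp1, where each gene is itself part of the mean. Among 4024 other Ensembl features that reached this minimum of 10 counts, the closest was ENSRNOG00000013322, with 4.02, 4.4, 3.39, 3.80 and 2.71 CPM in the same order of libraries and a distance of 0.042. The next was ENSRNOG00000020705, with 10.1, 9.98, 7.95, 8.58 and 6.45 CPM and a distance of 0.084. Both were closer to the mean profile than any of the 5 genes that define it. With 5 libraries and 4024 candidates, this likeness is a description.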

How the data were processed

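The read counts deposited by the authors are raw and given per feature, and a second deposited table gives FPKM. The submitters' processing notes name HISAT2 2.0.4 and HTSeq 0.9.1. The genome build and annotation are not given in the sources used here. The deposited FPKM equal the count divided by the library total and a whole-number length, so both tables hold the same measurement. The labels name a kit for small RNA, unlike the study's methods, which were followed. Amplification without molecular identifiers can widen the spread between libraries. A remaining control rat of the study was not analysed here. Nothing in the labels gives the litters, so p-values measure the spread between these libraries.

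The groups and replicate numbers came from the labels, and each column was matched to a sample by its title. Counts were compared with edgeR's quasi-likelihood test (edgeR 4.0.16, R 4.3.3) after TMM and filterByExpr with a minimum count of 10, with the group as the only term and Benjamini-Hochberg adjustment over all features tested. The SE of a log2 fold change was derived from the test's F statistic. The test was checked on simulated data, where it recovered changed features at a low spread between libraries but made no calls at a spread like that of these libraries, so a gene that missed the threshold is not shown to be unchanged. The alternatives were RLE factors, library size alone, library sizes without the 10 most counted features, no filter, DESeq2 1.42.0, limma 3.58.1 on log2(FPKM + 1) or log2(FPKM + 0.1), leaving out each library, and a replicate block.

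The genes and lists were chosen with earlier results of these data known. All 7 genes were named, and features of like profile were named by the smallest root mean square distance, of which the first 2 are printed. Lists of other immediate early genes, upstream kinases, related transcription factors and cell type markers had been planned by symbol and were not analysed here, because 0 of the identifiers could be matched to symbols.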

Additional observations from a re-analysis of the deposited data

How the results depend on the processing

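The number of the 7 genes with an adjusted p under 0.05 was 0 under all 14 alternatives, as was the number at an unadjusted p under 0.05. Since it was 0 with all libraries too, this says nothing about stability. Over all features, DESeq2 called 12 and edgeR with no filter called 10, where edgeR with the filter called 0 (and counted 441 before adjustment), and the cause was not tested. Of 84 alternative log2 fold changes of the 6 genes, 7 changed sign and none had an adjusted p under 0.05. Fos (-1.43 to -1.02), Jun (-1.34 to -0.29) and Junb (-0.63 to -0.22) kept their direction in each of the 14. Nr4a1 (0.75 to 3.59) did too, but it passed the filter only through the CYP11A1 libraries, so nothing is read from this. Leaving out 1 library at a time gave -0.46 to 0.90 for Dusp1 and -0.07 to 0.80 for Egr1. For Jun it gave -1.34 (without CYP11A1 1) to -0.29 (without CYP11A1 3). For Junb it gave -0.63 (without CYP11A1 1) to -0.22 (without CYP11A1 2). For Nr4a1 it gave 1.53 (without control 1) to 3.59 (without control 3). In these fits a lone control is assumed to vary like the other group. The 3 alternative scalings turned no direction, with a median over all features of 0.14 to 0.18, and that median was 0.03 to 0.49 with 1 library left out.

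The labels share the replicate numbers 1 and 3 between the groups. Same-numbered libraries deviated from their group means with a correlation of -0.266 across 10346 features, which are not independent. This gave no sign of a pairing. With 2 controls, whose deviations mirror each other, it cannot settle whether the numbers mark one. With the replicate block on these 4 libraries, 0 features were called (101 had an unadjusted p under 0.05) and the log2 fold changes of Egr1 and Dusp1 were -0.08 and -0.45. With the crossed pairing, chosen after the correlation was seen, 0 were called (355 had an unadjusted p under 0.05), and these values were -0.07 and -0.44. Both fits leave out CYP11A1 2, in which Egr1 and Dusp1 were highest. Depth limits Atf3 (25 counts in all) and Nr4a1 (73 counts).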
